A study of Mus musculus with 6 samples.

Results

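The H/ACA and Cajal body small RNAs of the mouse hippocampus were followed in 3 libraries from PTCHD1 mutant mice and 3 libraries from wild-type mice. Their members were all gene names of the deposited expression table that begin with Snora or Scarna and a digit, which gave 45 of the table's 25785 gene names, 36 Snora and 9 Scarna. Both groups were labelled C57B1/6J and postnatal day 30, and total RNA came from whole hippocampus, depleted of ribosomal RNA. The mutant allele is not described in the labels. Nor do they say whether the 6 libraries are 6 animals, and the p-values therefore refer to the spread among these libraries, which may be technical. Ptchd1, the targeted gene, averaged 154 ± 25.7 normalized read equivalents in the mutants and 374 ± 45.5 in wild type (SD, n = 3 each), with a log2 change of -1.28 ± 0.14 (SE). A normalized read equivalent is the authors' normalized value divided by 42, since the steps in those values look like base coverage by reads of that many bases.

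H/ACA small nucleolar RNAs are short RNAs with a pair of hairpins, a hinge sequence between them and the letters ACA near the 3′ end. Each binds dyskerin (Dkc1), Nop10, Nhp2 and Gar1, and pairs with ribosomal RNA to place a pseudouridine at a chosen base. Their Cajal body relatives, the scaRNAs, guide changes of spliceosomal small nuclear RNAs instead, and some of them are of the box C/D kind, which guides methylation of the ribose, or carry both kinds of domain. Nearly all are cut out of introns of host genes, many of which encode ribosomal proteins or other parts of the translation machinery.

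The RNAs whose values carry the results are shown first, with annotated sequences from GENCODE M21 transcripts (GRCm38) that were matched by symbol for all 45. Snora28 had the lowest log2 change, Snora7a, Snora30 and Snora5c lay inside hosts with log2 changes near or above 0, Snora35 and Snora65 were exceptions among the members, and Scarna9 and Scarna13 stand for the Cajal body RNAs without and with a 3′ ACA. Capitals mark ACA in the last 10 bases, the ANANNA nearest the middle of the Snora RNAs (Snora65 had none there) and, in Scarna9, TGATGA, the usual form of box C.
Snora28: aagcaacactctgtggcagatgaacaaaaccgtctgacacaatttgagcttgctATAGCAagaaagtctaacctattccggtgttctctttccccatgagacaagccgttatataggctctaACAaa
Snora7a: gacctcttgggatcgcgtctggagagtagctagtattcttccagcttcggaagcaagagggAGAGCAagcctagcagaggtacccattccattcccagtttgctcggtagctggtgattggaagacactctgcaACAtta
Snora30: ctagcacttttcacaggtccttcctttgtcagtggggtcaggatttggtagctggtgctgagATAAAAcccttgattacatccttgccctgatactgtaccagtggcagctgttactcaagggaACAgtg
Snora5c: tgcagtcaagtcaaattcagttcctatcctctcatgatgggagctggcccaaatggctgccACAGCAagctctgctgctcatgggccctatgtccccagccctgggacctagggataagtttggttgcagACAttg
Snora35: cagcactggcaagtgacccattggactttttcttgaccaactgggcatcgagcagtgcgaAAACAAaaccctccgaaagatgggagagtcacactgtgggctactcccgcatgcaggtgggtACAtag
Snora65: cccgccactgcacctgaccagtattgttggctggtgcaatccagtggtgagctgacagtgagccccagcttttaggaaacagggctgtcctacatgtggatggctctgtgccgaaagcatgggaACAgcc
Scarna9: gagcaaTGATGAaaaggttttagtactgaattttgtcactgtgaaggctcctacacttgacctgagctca
Scarna13: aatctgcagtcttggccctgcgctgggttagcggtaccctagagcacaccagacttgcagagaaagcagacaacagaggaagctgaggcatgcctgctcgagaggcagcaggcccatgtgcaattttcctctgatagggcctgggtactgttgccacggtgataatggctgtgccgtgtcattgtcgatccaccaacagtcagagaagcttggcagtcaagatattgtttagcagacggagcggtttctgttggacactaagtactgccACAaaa

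The letters largely bore out the name of the class, with an exception among the Cajal body RNAs. ACA lay in the last 10 bases of 34 of 36 Snora RNAs (94.4%), and ANANNA, the usual form of the hinge box H, lay between 35 and 60% of the length in 33 (91.7%). The same searches found ACA in 7 of 68 box C/D RNAs of the table (10.3%) and in 11.8% of 32851 promoter windows cut to 132 bases, the median length of the members, while ANANNA was found in 36.8% and 38.7% of them. TGATGA was in none of the Snora RNAs, 67.6% of the box C/D RNAs and 2.64% of the promoter windows. Of the 9 Scarna RNAs, 4 had the 3′ ACA and 6 had TGATGA, so "H/ACA" does not describe all of them. Scarna2, Scarna6, Scarna9, Scarna10 and Scarna17 lacked the 3′ ACA. Human SCARNA2, SCARNA9 and SCARNA17 are known as box C/D guides, and human SCARNA10, also called U85, is known as a composite guide of U5 small nuclear RNA. Each search covered the RNA strand alone, and promoter windows were searched on the strand of the gene.

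All 45 RNAs had coverage above 0 in each of the 6 libraries, and all had a mean of at least 1 normalized read equivalent. At 1 or more, 44, 44 and 45 members were present in mutant replicates 1, 2 and 3, and 45 in each wild-type library. At 10 or more, the mutant libraries held 30, 33 and 36 members, against 38, 36 and 39 in the wild-type libraries. Mutant replicate 3 and wild-type replicate 2 were thus level at 36. In read equivalents before normalization the same threshold was met by 31 members in each mutant library and by 38, 40 and 39 in the wild-type libraries. Library totals of unnormalized read equivalents ran from 12450700 in mutant replicate 3 to 19012800 in mutant replicate 1, against 17827500 in wild-type replicate 1 to 23749100 in wild-type replicate 2. Together the 45 members took 145, 234 and 265 ppm of all read equivalents in the mutant libraries, against 356, 338 and 433 ppm in the wild-type libraries. Those shares did not overlap between the groups, and mutant replicate 1 had the lowest. The class was a small part of each library.

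Most of these RNAs had lower values in the mutant libraries, in both the Snora and the Scarna group, but none passed the adjusted threshold. Of the 45 members, 37 reached a mean of 10 over the 6 libraries and were tested, 28 Snora and all 9 Scarna. The mean over all libraries set this filter, so no count over the tested members is a count over the class. Of the 37, 35 had a log2 change below 0, where 53.2% of the 15717 genes tested did. No member passed limma's adjusted threshold of 0.05, which 0.00636% of genes did, a single gene, Ptchd1. The lowest adjusted p of a member was 0.109, shared with a long run of other genes. At an unadjusted p under 0.05, 31 members were lower in the mutants, where 9.70% of all genes were, and 0 were higher, where 9.01% of all genes were. All 3 mutant values lay below all 3 wild-type values for 26 members, where this held for 12% of all genes, and no member had all 3 mutant values above, where 12.3% of genes did. With 3 libraries a group, an exact permutation test of 1 RNA cannot give a p below 0.1.

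The authors' deposited table gave more calls. Its p-value column, named for DEseq, holds 1 normal tail of the score beside it. Under 0.05 and with a lower mutant mean there were 28 of the 37 members in the authors' deposited table, where 11.1% of all genes were. After Benjamini-Hochberg adjustment over the 15717 genes, 14 members remained under 0.05 (3.23% of genes), and 12 with the p doubled to cover both tails (2.04% of genes). The smallest p of a member in the authors' deposited table belonged to Snora30, at 3.74e-07, with Snora7a next at 4.67e-07.

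The median log2 change of the 37 tested members was -0.78, beside -0.02 for all genes tested, and the members ranged from -1.60 to 0.06. Of the 37, 28 had a log2 change of -0.5 or below, as did 3.62% of all genes, and 9 had -1 or below, as did 0.808% of all genes. Among these 9, Snora35, Snora36b, Snora17, Snora3 and Snora43 reached the filter mean of 10 only through the wild-type libraries. Their mutant means were 6.91, 8.15, 9.34, 8.64 and 6.66, so the filter itself favoured low mutant values there. The median was -0.77 for the 28 Snora RNAs and -0.83 for the 9 Scarna RNAs, and -0.97 for the 5 Scarna RNAs without the 3′ ACA. After the GC content and length trend of each library was subtracted, the median of the members was -0.22, with 29 of 37 below 0, 8 lower at an unadjusted p under 0.05 (5.72% of genes) and none past the adjusted threshold. Under that subtraction the log2 change was -0.91 for Snora28, -0.22 for Snora7a, -0.33 for Snora30, -0.41 for Snora5c, -0.17 for Snora16a and -0.018 for Snora68. Among the Cajal body RNAs it was -1.14 for Scarna10, -0.86 for Scarna2, -0.65 for Scarna9, -0.39 for Scarna6 and -0.11 for Scarna13. The length used there was that of the GENCODE RNA, 325 bases for Scarna10 and 414 for Scarna2. The RefSeq spans of Scarna10 and Scarna2 are 71 and 61 bases. Their values under the subtraction depend on which length is taken, and the RefSeq span was not tried. The short end of that length trend is largely these RNAs: 80 of the 147 tested genes of 300 bases or less (54.4%) were members or box C/D RNAs. In bulk tissue, fewer cells of a type and less RNA per cell cannot be told apart.

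**Figure D1:**
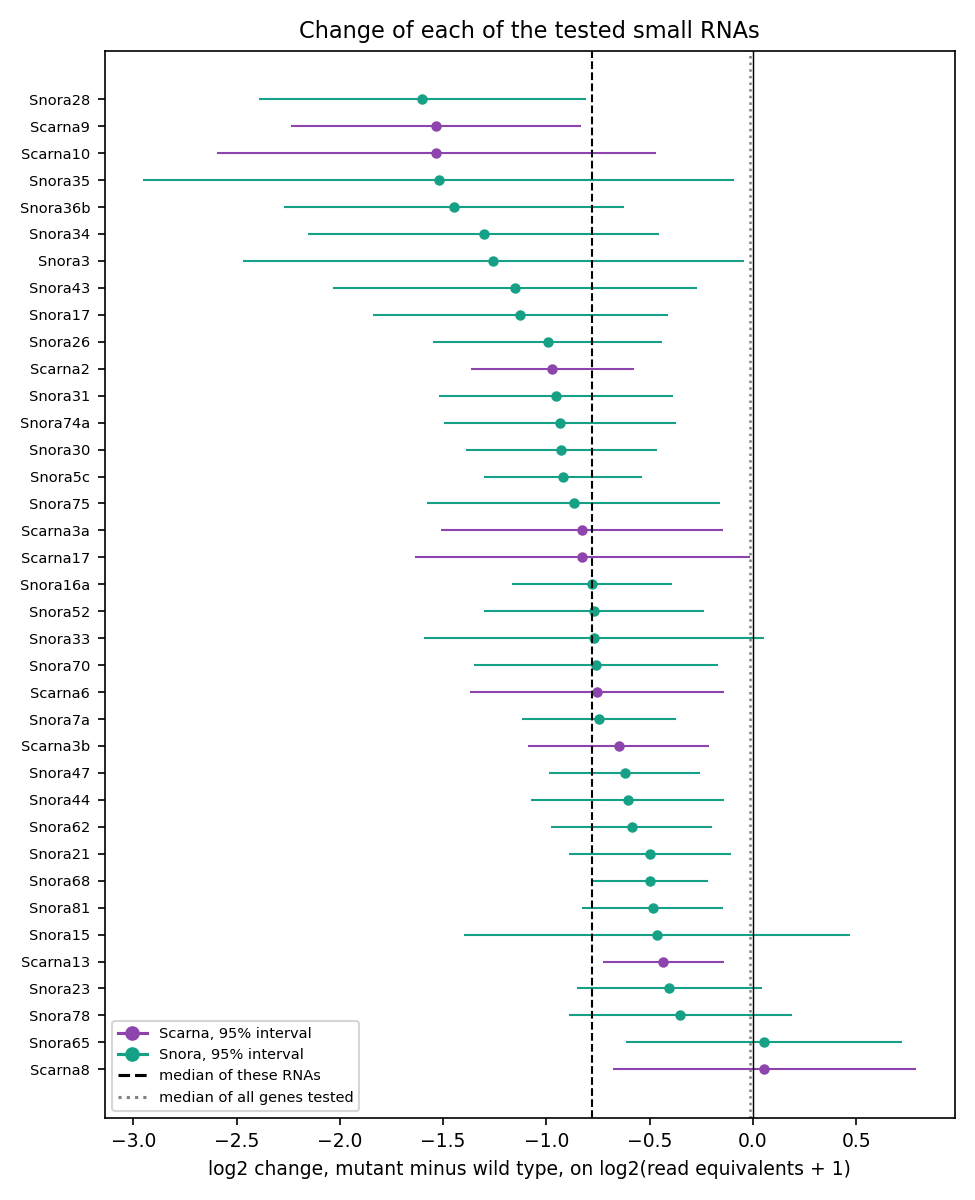
Log2 change (mutant minus wild type, on the log2(read equivalents + 1) scale) of the 37 tested small RNAs, with lines for 95% intervals from limma. The dashed line marks their median, -0.78, the dotted line the median of all genes tested, -0.02, and 35 of the 37 points lie left of 0.

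Among the Snora RNAs with the most read equivalents, Snora74a, also known as U19, had 234, 489.8 and 479.8 in mutant replicates 1, 2 and 3, and the wild-type replicates 1, 2 and 3 had 659, 615 and 951. Its log2 change was -0.93 ± 0.25 (SE; adjusted p = 0.129), and -0.59 without mutant replicate 1. Every mutant library was below every wild-type library, and mutant replicate 1 was lowest. Snora7a, an H/ACA RNA inside the ribosomal protein gene Rpl32, had 236, 378 and 366 in the mutants, against 585, 461 and 574 in wild type. The groups did not overlap and the log2 change was -0.75 ± 0.17 (SE), 60.5% of the wild-type mean. Per 100 bases of its RefSeq span, Snora7a had a level of 253 in the mutants and 419 in wild type, Snora16a a level of 107 in the mutants and 181 in wild type, and Snora68 a level of 162 in the mutants and 229.8 in wild type.

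Snora28, carried in Eif5, a translation initiation factor gene, had 68.6, 175 and 244 read equivalents in the mutants, against 375, 403 and 550.0 in wild type. The highest mutant library did not reach the lowest wild-type library, and mutant replicate 1 held less than the other two mutants. Its log2 change of -1.60 ± 0.36 (SE; adjusted p = 0.109) was the lowest of all tested members, with a 95% interval of -2.39 to -0.81. Without mutant replicate 1 it was -1.07.

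Snora30, in an intron of the chromatin remodeller gene Srcap, had 95.7, 174 and 180.5 in the mutants, against 297, 252 and 279 in wild type, a log2 change of -0.93 ± 0.21 (SE). Its groups did not overlap. Snora5c, in the gene Tbrg4, was even within the mutants, with 47.7, 46.3 and 51.0 in the mutants, against 92.4, 77.8 and 109 in wild type. The group means were 48.3 ± 2.42 in the mutants and 93.0 ± 15.5 in wild type (SD, n = 3 each), and the log2 change of -0.92 ± 0.17 (SE) was -0.91 without mutant replicate 1.

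**Figure D2:**
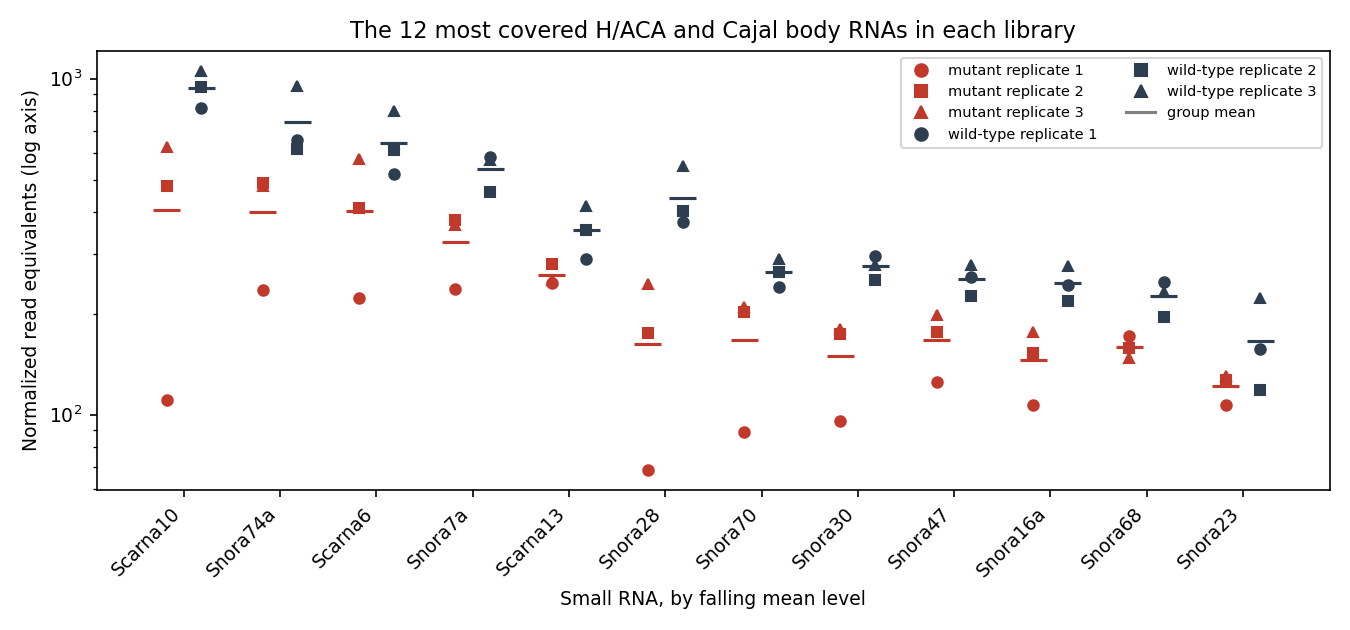
Normalized read equivalents (log axis) in each library for the 12 members with the highest mean, mutant libraries in red left of wild-type libraries in blue, with bars for group means. Scarna6 and Snora23 overlap between the groups, and for the other 10 every mutant value lies below every wild-type value, as for 12% of all genes tested.

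Snora16a, from the noncoding host Snhg12, had 107, 153 and 176 in the mutants, against 243, 218 and 276 in wild type (log2 change -0.78 ± 0.18 SE). Snora68 had 172, 158 and 147 in the mutants, against 248, 196 and 232 in wild type (log2 change -0.50 ± 0.13 SE). In both RNAs the groups did not overlap, but mutant replicate 1 was the lowest mutant library for Snora16a and the highest for Snora68. Snora26, from the noncoding host Dancr, had 21.8, 39.8 and 36.8 in the mutants, against 52.8, 67.3 and 74.8 in wild type. Snora36b, from an intron of Rab3gap2, had 9.74, 10.5 and 4.21 in the mutants, against 29.4, 19.7 and 19.8 in wild type. These 2 scarcer RNAs had log2 changes of -0.99 ± 0.25 and -1.45 ± 0.37 (SE).

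Snora70, in the ribosomal protein gene Rpl10, had 88.9, 203 and 208 in the mutants, against 240.2, 265 and 290 in wild type. Snora47, in an intron of Zbed3, had 125.5, 177 and 199 in the mutants, against 256, 225 and 279.0 in wild type. Neither overlapped between the groups, with log2 changes of -0.76 ± 0.27 for Snora70 (-0.36 without mutant replicate 1) and -0.62 ± 0.17 for Snora47 (SE). Snora23, in an intron of the importin gene Ipo7, overlapped, with 107, 127 and 130.6 in the mutants, against 157, 118 and 223 in wild type (log2 change -0.40 ± 0.20 SE, -0.62 without wild-type replicate 2 and -0.17 without wild-type replicate 3). The other 12 tested Snora RNAs not described one by one averaged between 9.34 and 109 in the mutants and between 18.9 and 161 in wild type. All 12 had log2 changes below 0, from -1.30 for Snora34 to -0.35 for Snora78, where 53.2% of all genes were below 0. In 8 of them the mutants were lower without overlap, where 12% of all genes were.

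The Cajal body RNAs included the member with the most read equivalents. Scarna10 had 111, 479.8 and 626 in the mutants, against 816, 943 and 1055 in wild type. All 3 mutant libraries were below all 3 wild-type libraries, and mutant replicate 1 was far below the other two. The log2 change was -1.53 ± 0.48 (SE; adjusted p = 0.147), and -0.77 without mutant replicate 1, so that 1 library set much of its size. Scarna6, whose human form U88 is another composite guide, had 222, 413 and 576 in the mutants, against 519, 612 and 802 in wild type. There mutant replicate 3 was above wild-type replicate 1, and the log2 change was -0.75 ± 0.28 (SE), -0.38 without mutant replicate 1.

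Scarna2, whose human counterpart guides methylation of U2 small nuclear RNA, had the smallest p of all members, an unadjusted limma p of 0.000222. It had 45.8, 47.0 and 64.8 in the mutants, against 93.8, 112 and 103 in wild type. The groups did not overlap, and the mutant mean of 52.5 ± 10.7 was 51.1% of the wild-type mean of 103 ± 8.93 (SD, n = 3 each). Its log2 change was -0.97 ± 0.18 (SE; adjusted p = 0.109).

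Scarna9, another U2 guide of the box C/D kind in human, had 10.4, 25.1 and 26.9 in the mutants, against 55.5, 58.6 and 58.9 in wild type. The wild-type libraries lay close together and the mutants all stood below them, with a log2 change of -1.53 ± 0.32 (SE). Scarna17, of the same kind, overlapped, with 10.9, 25.6 and 35.1 in the mutants, against 31.5, 41.8 and 44.7 in wild type (log2 change -0.83 ± 0.37 SE, and -0.37 without mutant replicate 1).

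Scarna13, whose human form U93 is built of a pair of H/ACA domains, had the smallest log2 change among the 8 lower Scarna RNAs, at -0.43 ± 0.13 (SE). It had 246, 281 and 252 in the mutants, against 290, 355 and 419 in wild type, without overlap. Scarna3a had 42.4, 117 and 99.9 in the mutants, against 122, 144 and 161 in wild type (log2 change -0.83 ± 0.31 SE, and -0.38 without mutant replicate 1). Scarna3b had 36.0, 32.4 and 29.4 in the mutants, against 44.1, 58.1 and 53.4 in wild type (log2 change -0.65 ± 0.20 SE). Both were lower in every mutant library, although mutant replicate 1 was the lowest mutant for Scarna3a and the highest for Scarna3b. These 2 RNAs share a stretch of 23 identical bases, the longest among the 990 pairs of members. No pair shared 42 bases, the inferred read length.

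A pair of tested RNAs had log2 changes above 0, and neither was near the threshold. Scarna8, whose human form U92 is an H/ACA guide of U2, had 12.6, 10.1 and 8.16 in the mutants, against 8.87, 9.20 and 11.3 in wild type (log2 change 0.06 ± 0.33 SE). Snora65, in the ribosomal protein gene Rpl12, had 23.1, 17.5 and 12.9 in the mutants, against 15.2, 14.8 and 20.8 in wild type (log2 change 0.05 ± 0.30 SE). In both, mutant replicate 1 was the highest of the mutants and the groups overlapped throughout. The 95% interval for Snora65 ran from -0.61 to 0.72 and that for Scarna8 from -0.68 to 0.79. The members' median of -0.78 lay just outside both. These RNAs had the highest log2 changes of the 37, and the intervals make no allowance for that choice. They therefore cannot show whether either RNA differs from the other members. Snora65 and Snora35 were chosen for description after their values were seen.

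Around the filter mean of 10 the values were close. Just above it with Scarna8 stood Snora43, with 3.70, 6.41 and 9.88 in the mutants, against 20.2, 14.2 and 11.97 in wild type, and Snora3, with 2.29, 5.99 and 17.6 in the mutants, against 19.3, 12.5 and 20.3 in wild type. Snora43 did not overlap between the groups and Snora3 did, with a log2 change of -1.26 for Snora3 that was -0.66 without mutant replicate 1 and -1.91 without mutant replicate 3. Just below it, Snora24 had 1.32, 8.97 and 10.8 in the mutants, against 7.73, 13.7 and 17.3 in wild type. Snora64 had 8.95, 5.29 and 9.27 in the mutants, against 15.7, 5.65 and 12.4 in wild type, and Snora2b 3.86, 7.37 and 14.5 in the mutants, against 10.1, 9.90 and 6.42 in wild type. All 3 overlapped between the groups. The other 5 untested members were Snora61, Snora41, Snora69, Snora19 and Snora20. Of these, Snora41 had 3.83, 3.06 and 3.20 in the mutants, against 8.99, 9.61 and 7.25 in wild type, and Snora20 had 0.154, 1.35 and 1.72 in the mutants, against 3.71, 3.18 and 3.74 in wild type. Those groups did not overlap, while the groups of the other three did. With the filter set at a mean of 1, all 45 members were tested, 43 had a log2 change below 0, 33 were lower at an unadjusted p under 0.05 (8.88% of genes) and none passed the adjusted threshold.

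The libraries differed within the groups, and mutant replicate 1 stood apart. It was the lowest of the 6 libraries for 28 of the 37 tested members, mutant replicate 2 for 4 and mutant replicate 3 for 5, and no wild-type library was the lowest for any. The highest library was wild-type replicate 3 for 23 members, wild-type replicate 1 for 9, wild-type replicate 2 for 3 and mutant replicate 1 for 2. The median log2 deviation of the members from their 6-library mean was -0.80, -0.24 and -0.12 in the mutants (replicates 1, 2 and 3), against 0.36, 0.24 and 0.54 in wild type. Without mutant replicate 1 the median log2 change of the members was -0.59, 24 were lower at an unadjusted p under 0.05 (7.22% of genes), and 26 did not overlap (16.4% of genes).

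Other short RNAs were lowest in mutant replicate 1 as well. The 45 tested box C/D RNAs all had log2 changes below 0, with a median of -1.29, and their median deviations were -1.75, -0.37 and 0.11 in the mutants, against 0.38, 0.69 and 0.77 in wild type. For 67 other tested genes of 300 bases or less, 52 of them microRNA genes, the median log2 change was -0.22, and 65.7% were below 0. For 225 genes of over 300 and up to 600 bases the median was -0.18, and for 15063 longer genes it was -0.01. Over the tested genes, Spearman's rho of a gene's deviation with its length was 0.10, 0.23 and 0.0079 in the mutants. In wild type it was -0.061, -0.11 and -0.26. With GC content, rho was 0.43, 0.012 and 0.084 in the mutants, against -0.0091, -0.48 and -0.18 in wild type. Neither set of values overlapped between the groups, a description without a test. The part of RNA length and of library preparation in the members' values was not tested beyond the subtraction of the trends. Within the members, Spearman's rho with the log2 change was 0.34 for the RefSeq span, 0.15 for the length of the GENCODE RNA, 0.19 for its GC content and 0.12 for the mean level (37 RNAs that share the 6 libraries, a description without a test).

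**Figure D3:**
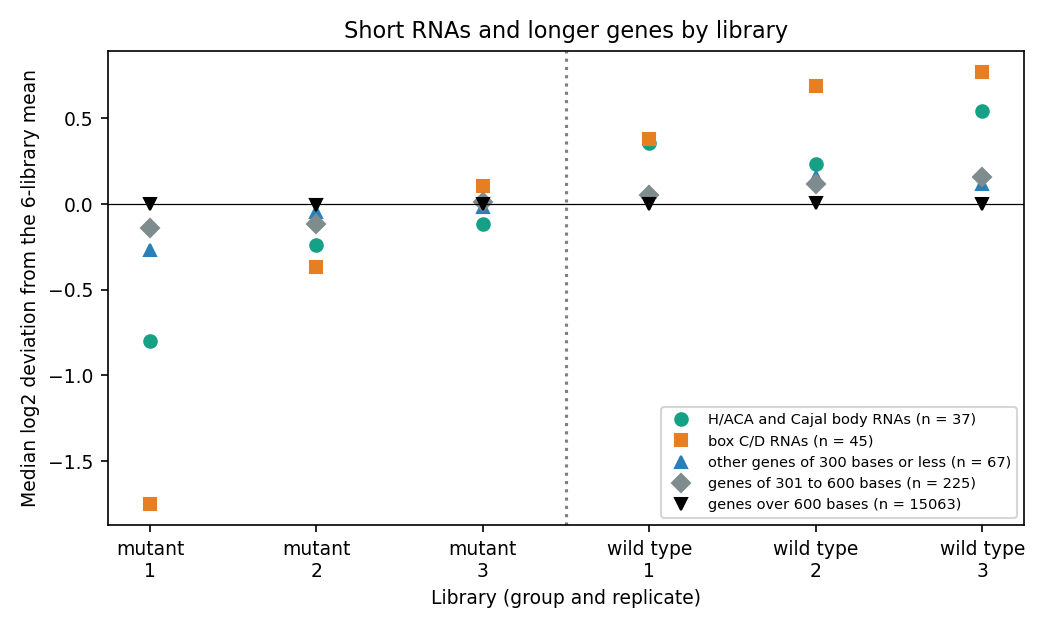
Median log2 deviation from the 6-library mean in each library for the members (circles, 37), box C/D RNAs (squares, 45), other genes of 300 bases or less (upward triangles, 67), genes of over 300 and up to 600 bases (diamonds, 225) and longer genes (downward triangles, 15063), the mutant libraries left of the dotted line. The members run from -0.80 in mutant replicate 1 to 0.54 in wild-type replicate 3, and the longer genes stay at 0.

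The host genes gave a second reading of the same loci, since a host's transcript and its intronic RNA come from 1 precursor. That reading is not a separate one where the small RNA overlaps an exon of some host transcript. GENCODE placed 41 members within a host gene on the same strand. For 29 tested members in 28 hosts, 8 of them ribosomal protein genes, both the RNA and the host were tested. The small RNA had the lower log2 change of the pair in 26 of the 29. Its median was -0.76, beside -0.13 for the host, and the median difference between RNA and host was -0.68. Of the 28 hosts 21 had log2 changes below 0, where 53.2% of all genes did. At an unadjusted p under 0.05, 8 were lower and 1, Srcap, was higher, where 9.70% and 9.01% of all genes were. A further count, of hosts lower without overlap, was 5, where 12% of all genes were. With the hosts of untested members added, 34 hosts were tested, with a median log2 change of -0.17. Of these 34, 13 were lower and 2 higher at an unadjusted p under 0.05, and 9 were lower and 3 higher without overlap. None passed the adjusted threshold.

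Rpl32, the host of Snora7a, averaged 1100 ± 114 in the mutants and 1117 ± 171 in wild type (SD, n = 3 each), a log2 change of -0.02 ± 0.11 (SE). Eif5, the host of Snora28, averaged 4366 ± 369 in the mutants and 4706 ± 334 in wild type, a log2 change of -0.11 ± 0.08 (SE). Srcap was higher in every mutant library, with 2037, 1955 and 1742 in the mutants, against 1519, 1375 and 1260 in wild type, while its intronic Snora30 was lower in every mutant library. The log2 change of Srcap was 0.47 ± 0.09 (SE; adjusted p = 0.109). Dancr, the host of Snora26, was lower together with its RNA, with 62.5, 87.9 and 81.1 in the mutants, against 112, 128 and 123 in wild type (log2 change -0.65 ± 0.16 SE). Rpl12, the host of Snora65, had a log2 change of -0.40 ± 0.15 (SE), below that of its RNA.

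By position, 16 tested members lay in introns of all host transcripts, with 15 lower and a median log2 change of -0.70. A further 17 overlapped an exon of some host transcript, with 16 lower and a median of -0.77. For those, Snora7a, Snora28, Snora26 and Snora65 among them, reads of the host's exon and of the small RNA cannot be told apart. The 4 members without an annotated host, Scarna2, Scarna17, Snora17 and Snora43, were all lower, with a median of -1.05. Across the 29 pairs Spearman's rho between the log2 changes of RNA and host was -0.32, a description without a test.

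**Figure D4:**
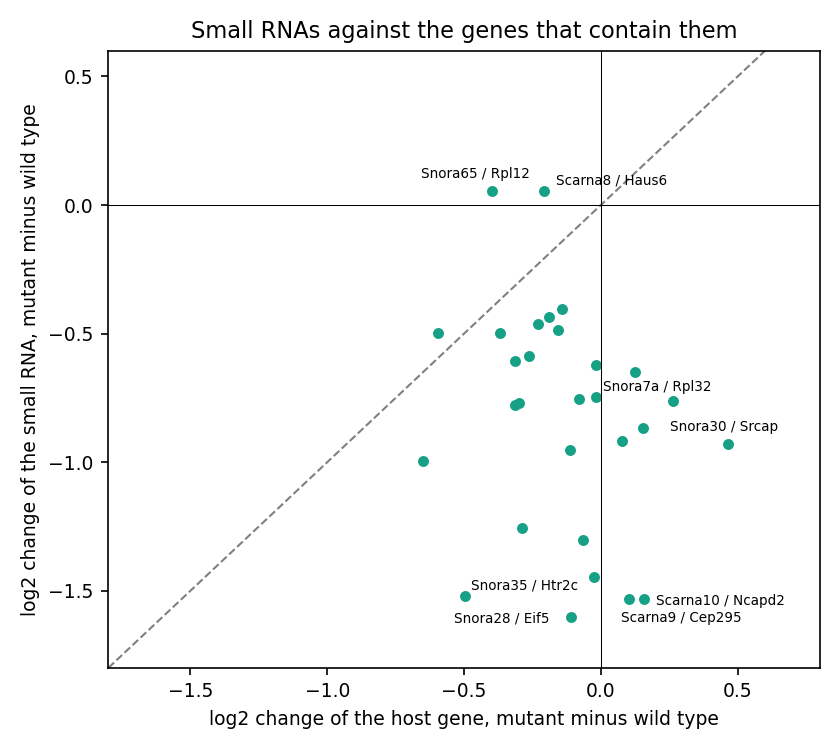
Log2 change of each of 29 small RNAs (vertical axis) against that of its host gene (horizontal axis), both mutant minus wild type; the dashed line marks equal change. In 26 of the 29 pairs the point lies below the line, and Snora65 with Rpl12 and Scarna8 with Haus6 are among the 3 above it.

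In Snora35 the wild-type libraries were split. This H/ACA RNA lies in an intron of Htr2c, the serotonin 2C receptor gene, and is known in mouse from the choroid plexus, where Htr2c is abundant. It had 4.54, 6.19 and 10.01 in the mutants, against 52.8, 5.51 and 28.5 in wild type. Wild-type replicates 1 and 3 were high, and wild-type replicate 2 lay among the mutants. The log2 change was -1.52 ± 0.65 (SE; adjusted p = 0.243), -0.87 without wild-type replicate 1 and -2.39 without wild-type replicate 2.

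The choroid plexus marker list followed the same libraries. Its 7 genes summed to 2789, 1171 and 1158 in the mutants, against 54271, 788 and 20190 in wild type, and the mean of each reached 1 or more. Ttr, the transthyretin gene that marks this epithelium, had 2199, 628 and 621 in the mutants, against 48922.5, 275 and 17849 in wild type. Htr2c had 934, 793 and 854 in the mutants, against 1478, 1026 and 1172 in wild type (log2 change -0.50 ± 0.12 SE; adjusted p = 0.120). The part of choroid plexus tissue in the Snora35 values was not tested. The markers of hippocampal neurons, which check the tissue label, summed to between 45558 and 48837 in the mutants and between 39740 and 42992 in wild type. Camk2a was the largest part of these sums, with means of 25037 in the mutants and 20493 in wild type. Camk2a, Slc17a7 and Wfs1 were higher in the mutants without overlap. Prox1, Zbtb20 and Neurod6 overlapped between the groups, with log2 changes of 0.11, 0.07 and -0.05.

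**Figure D5:**
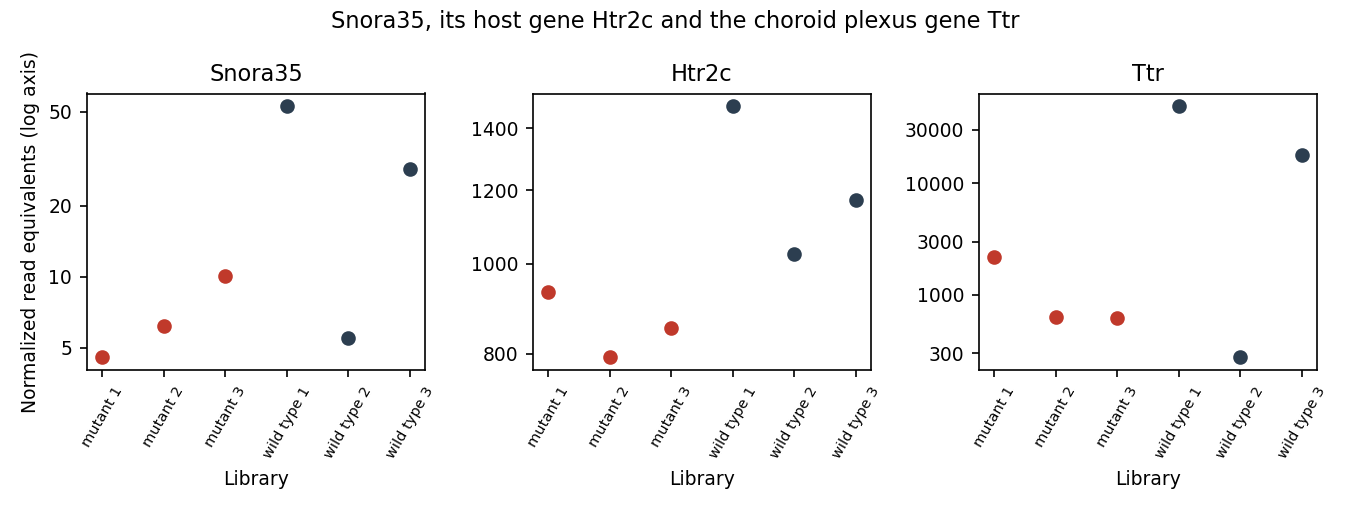
Normalized read equivalents (log axes) of Snora35, its host Htr2c and the choroid plexus gene Ttr in the 3 mutant libraries (red, left) and the 3 wild-type libraries (blue, right). Wild-type replicates 1 and 3 stand above the rest for Snora35 and Ttr, and wild-type replicate 2 lies among the mutants or below them, at 5.51 and 275.

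The listed protein genes were balanced around 0. A list of 21 symbols covered proteins that form, assemble or trim small nucleolar RNA particles. Not all of them are particular to H/ACA particles, Nop58, Znhit3 and Znhit6 among these. Papd5 and Tent4b are names of the same gene, and 20 genes were tested, with 10 below 0 and 10 above. Their median log2 change was -0.0034 and none passed the adjusted threshold. At an unadjusted p under 0.05, 1 was lower and 1 higher, where 9.70% and 9.01% of all genes were. Dkc1, the pseudouridine synthase itself, averaged 383 ± 21.3 in the mutants and 386 ± 22.9 in wild type (SD, n = 3 each), a log2 change of -0.01 ± 0.09 (SE). Nop10 had a log2 change of -0.05 ± 0.11, Nhp2 one of -0.21 ± 0.10 and Gar1 one of 0.30 ± 0.19 (SE). Pabpn1, a nuclear poly(A) binding protein, had 1275, 1301 and 1237 in the mutants, against 1091, 1169 and 992 in wild type, without overlap (log2 change 0.23 ± 0.08 SE; adjusted p = 0.155). Znhit3, an assembly factor, had 162, 228 and 281 in the mutants, against 251, 305 and 315 in wild type (log2 change -0.41 ± 0.18 SE). Exosc10 was higher on average, with groups that overlapped (log2 change 0.16 ± 0.08 SE).

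A second list of 23 symbols covered Cajal body, small nuclear RNA assembly and related genes. Narg2 and Ice2 are names of the same gene, and 22 genes were tested, with 12 below 0 and 10 above. Their median log2 change was -0.04 and none passed the adjusted threshold. At an unadjusted p under 0.05, 3 were lower and 2 higher, where 9.70% and 9.01% of all genes were. Coil, which encodes coilin, the scaffold of the Cajal body, averaged 402 ± 33.3 in the mutants and 410 ± 30.4 in wild type (SD, n = 3 each). Wrap53, whose protein brings scaRNAs to the body, had a log2 change of -0.06 ± 0.14 (SE). Gemin6, of the SMN complex, had 35.1, 53.6 and 42.5 in the mutants, against 63.4, 66.7 and 67.9 in wild type, without overlap (log2 change -0.60 ± 0.19 SE; adjusted p = 0.151). Gemin8, of the same complex, had 60.9, 60.5 and 74.5 in the mutants, against 50.2, 44.4 and 51.2 in wild type, also without overlap but higher in the mutants (log2 change 0.42 ± 0.17 SE). Tcof1, the treacle gene, was also higher in each mutant library (log2 change 0.28 ± 0.10 SE), and Strap was lower in each (log2 change -0.20 ± 0.07 SE). Casp8ap2 was lower on average, with groups that overlapped (log2 change -0.20 ± 0.08 SE). Terc, the H/ACA RNA of telomerase, has a name outside the rule and stayed under the filter, with 8.81, 5.26 and 9.71 in the mutants, against 9.97, 11.1 and 3.51 in wild type, where the groups overlapped.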

How the data were processed

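Per the labels' protocols, Trizol total RNA (2000 ng) was cleaned on RNeasy MinElute columns, depleted of ribosomal RNA, fragmented and made into stranded dUTP libraries read single-end; recovery of RNAs this short was not measured. The submitters' processing notes name GSNAP, DESeq2 and the build mm9; versions, counting rules and the treatment of multiply mapped reads were not stated there. The deposited values are a normalized signal per transcript: 100% are whole multiples of a library step (tolerance 0.01), with peaks at 42, 84 and 126 steps, and they were therefore taken as base coverage over a size factor, which no source states. The p-value and the score of each transcript are the authors', per the file headers; in all rows with p under 0.5 the p equals 1 normal tail of the score within 0.006. The design allowed for counts or coverage, and the test for coverage was used.

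Groups follow the genotype label, and replicate numbers follow accession order. Each of the 45 members had 1 transcript row; for other genes the row with the highest mean was kept. Genes with a mean of at least 10 read equivalents were tested with limma 3.58.1 (R 4.3.3; eBayes, trend on) on log2(value + 1), two-sided; p-values were adjusted over 15717 genes by Benjamini-Hochberg and called under 0.05. That scale understates changes of low values. The test was run on simulated data. GC content, length, hosts and RNA sequences came from GENCODE M21 (GRCm38), and spans from RefSeq of GRCm38.p6; 36 members have a shorter RefSeq span than GENCODE RNA, and the version the authors counted over is not given. No coordinates are printed, because the files use mm9. The members and lists were chosen with earlier results of these data known. Named were the 12 members with the highest mean, up to 10 per direction without overlap by smallest p, the 3 on either side of the filter and all Scarna RNAs. Alternatives were other filters, pseudocounts and scalings, a GC and length correction (splines of 5 degrees of freedom), no trend and leaving out each library.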

Additional observations from a re-analysis of the deposited data

How the results depend on the processing

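No paired analysis was possible because the replicate numbers follow accession order and the titles carry no number shared between the groups. The members' median log2 change of -0.78 lay between -0.99 and -0.59 over the 6 omissions of 1 library and was -0.22 with the GC content and length correction and -0.74 with the added GC correction alone. The count of members past the adjusted threshold, 0 in the reported fit, ran from 0 to 2 over these omissions. Without mutant replicate 3 it was 2 (Snora28 and Scarna2, adjusted p = 0.0484), where 44 of 15705 genes passed, 23 of them lower (0.146% of genes). The count of members was also set against other omitted libraries. That count was 7 without mutant replicate 1 and wild-type replicate 2, a setting chosen after seeing the data (Scarna10, Snora35, Snora74a, Snora28, Snora5c, Snora7a and Snora30), where 119 genes in all passed. The members without overlap, 26 in all, ran from 26 to 32 over the omissions, where the share of all genes was 15.8 to 21.5% against 12% with 6 libraries. All 45 had a mean of at least 1 in each omission; a mean of 10 was reached by 37 with 6 libraries and by 36 to 39 in the omissions.

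Over all genes the count past the threshold, 1 in the reported fit, was 0 with no filter, with quantile normalization, with no trend and with the added GC correction alone, 3 with the GC and length correction, and 0 to 44 over the omissions. The log2 change of Ptchd1 lost the adjusted threshold at -1.28 with no filter, at -1.25 with quantile normalization, at -1.28 with no trend and at -1.20 with the GC correction alone, and lay between -1.41 and -1.17 over the omissions, where the call was also lost without mutant replicate 2 (adjusted p = 0.223), wild-type replicate 1 (0.0655) and wild-type replicate 3 (0.370). The median of both protein lists together, -0.01, was 0.044 with the GC correction alone and -0.02 to 0.01 over the omissions.

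Of 428 values for 27 named members, 407 kept their direction and side of the threshold, 9 newly passed it and 12 changed sign. With the GC and length correction Snora23 was at 0.17, Scarna3b at 0.011, Snora78 at 0.057 and Snora15 at 0.38. Snora65 was at -0.14 without mutant replicate 1, -0.01 without wild-type replicate 1, -0.03 without wild-type replicate 2, -0.22 without mutant replicate 1 and wild-type replicate 2, and -0.00043 with the GC correction alone. Snora15 ran from -0.81 to 0.014 over the omissions (highest without mutant replicate 1) and was at 0.25 without that library and wild-type replicate 2, and Scarna8 ran from -0.0046 (without wild-type replicate 1) to 0.20. None of the 12 had an adjusted p near the threshold, and the cause was not tested. Depth limits the scarce members: the 8 under the filter had means below 10 read equivalents, so their values are the least precise.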
